A study of Mus musculus with 2 samples.

Results

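The lipid-associated macrophage genes described here are Trem2, Tyrobp, Gpnmb, Cd9, Cd63, Spp1 and Ctsk, 7 of the 26078 genes listed in a single-cell RNA count matrix of mouse liver macrophages. They were taken by gene symbol from the matrix, and all 7 were found. Lipid-associated macrophages are a state of macrophages in fat tissue, atherosclerotic plaques and damaged liver that take up lipid and cell debris. TREM2 is a surface receptor for lipids, lipoproteins and dying cells that signals through the adaptor TYROBP (DAP12), which many other receptors of myeloid cells also use. GPNMB is a glycoprotein of lysosomes and the cell surface, CD9 and CD63 are tetraspanins of the plasma membrane and of late endosomes, SPP1 (osteopontin) is a secreted ligand of integrins and CD44, and cathepsin K, encoded by Ctsk, is a lysosomal protease best known from osteoclasts.

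The study compared liver macrophages of 1 Spta sph/sph mouse, which carries a mutation that makes red cells fragile and causes hemolytic anemia, with those of 1 Spta wt/wt littermate. Both were untreated males of 8 to 10 weeks. Livers were digested by perfusion with collagenase, and the non-parenchymal cells were enriched for the macrophage surface protein F4/80 with antibody-coated beads before droplet capture and sequencing of the 3′ ends of transcripts. The study asked how uptake of red cells shapes the program of liver macrophages.

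The matrix holds 2 libraries, told apart by the number at the end of each cell barcode. No label used here ties a number to a mouse, so the libraries are called library 2 and library 1 and no genotype is attached to either. With 1 library per mouse there was no replicate check and no test between libraries. Every interval below is a 95% interval and covers counting error only, and every ratio is library 2 over library 1. Unique molecular identifiers (UMIs) count captured RNA molecules, and CPM is the UMIs of a gene per 1000000 UMIs summed over the cells of a type.

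Library 2 had 56947765 UMIs in 9726 barcodes, and library 1 had 33099802 UMIs in 8907 barcodes. After filters on gene number and mitochondrial RNA, 6942 cells of library 2 and 3488 of library 1 were left. Both libraries share 955 barcode sequences. Among the kept cells, 44 of library 2 and 815 of library 1 were shared barcodes with more than 5 times as many UMIs in the other library. These shallow shared barcodes stand apart: in library 1 the Kupffer-type ones had 15327 CPM of the scavenger receptor gene Marco, against 473 CPM in the other Kupffer-type cells of library 1 and 12543 CPM in library 2. Results that rest on them are given with and without them.

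Kupffer cells are the resident macrophages of the liver sinusoids. A cell was called Kupffer-type when it had at least 5 of 11 Kupffer markers, at least 120 marker UMIs per 10000, and passed the gate of no other lineage. Among these markers, Clec4f, a lectin restricted to Kupffer cells, had 2558 CPM in library 2 and 4057 CPM in library 1, and Cd5l, a secreted protein gene of tissue macrophages, had 8232 CPM in library 2 and 6544 CPM in library 1. The gate itself sets such levels, so they describe the cells and do not test the label. None of the 7 genes was a marker. The gate took 4056 cells of library 2 (58.4% of the kept cells) and 2197 of library 1 (63.0%), shares that the F4/80 beads could set, with a median depth of 5872 UMIs in library 2 and 3451 UMIs in library 1. Among all kept cells, 577 of library 2 and 129 of library 1 lay within 20 per 10000 of the marker cut, on either side of it. Cells assigned to no lineage were 25.3% of the kept cells of library 2 and 20.5% of those of library 1. They include cells that passed several gates. No doublet caller was run. Cells that passed another lineage's gate with at least 100 Kupffer-marker UMIs per 10000 were also left without a lineage. They numbered 354 in library 2 and 138 in library 1.

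RNA of other cells was present in the Kupffer-type cells. Summed erythroid markers, all 10 with a UMI in each library, had 246 CPM in library 2 and 13.4 CPM in library 1. Without the shallow shared barcodes, library 1 had 6.003 CPM of these markers, from 57 UMIs in place of 132. Only 7 of the 10 markers then had a UMI there. Summed endothelial markers had 515 CPM in library 2 and 897 CPM in library 1. Hepatocyte markers had 1293 CPM in library 2 and 1621 CPM in library 1, and monocyte-macrophage markers had 109 CPM in library 2 and 263 CPM in library 1. All 11 endothelial, 9 hepatocyte and 10 monocyte-macrophage markers had a UMI in both. The part of this RNA in the differences between libraries was not tested.

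On GRCm38, in the GENCODE annotation, Trem2 (ENSMUSG00000023992) lies at chr17:48346401-48354147, Tyrobp (ENSMUSG00000030579) at chr7:30413760-30417585 and Gpnmb (ENSMUSG00000029816) at chr6:49036546-49070929, all on the plus strand. Cd9 (ENSMUSG00000030342) lies at chr6:125460266-125494791 on the minus strand. Cd63 (ENSMUSG00000025351) lies at chr10:128900989-128912822, Spp1 (ENSMUSG00000029304) at chr5:104435118-104441050 and Ctsk (ENSMUSG00000028111) at chr3:95499256-95509362, all on the plus strand. All 7 are protein-coding genes.

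The region upstream of the start is shown for the 4 genes that were at least 2-fold higher in Kupffer-type cells of library 2, because macrophage genes of lysosomes are known targets of the MiT factors, which bind CACGTG and CATGTG, and because AP-1 factors bind TGANTCA. The 250 bases before the RefSeq start are printed (GRCm38.p6), with matches to these letters on either strand in capitals. They lie at chr17:48346151-48346400 on the plus strand for Trem2, chr6:125494761-125495010 on the minus strand for Cd9, chr10:128909095-128909344 on the plus strand for Cd63, and chr6:49036268-49036517 on the plus strand for Gpnmb. The RefSeq start used for Cd63 lies inside the GENCODE span of the gene, downstream of its 5′ end, so the sequence before that outer end is not shown. Of the 7 genes, 6 were matched in the RefSeq promoter table, all but Tyrobp.
Trem2: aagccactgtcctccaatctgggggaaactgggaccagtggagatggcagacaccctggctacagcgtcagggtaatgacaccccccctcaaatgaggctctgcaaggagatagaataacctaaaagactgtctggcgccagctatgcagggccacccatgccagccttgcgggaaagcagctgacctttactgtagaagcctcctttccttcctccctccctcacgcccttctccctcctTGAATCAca
Cd9: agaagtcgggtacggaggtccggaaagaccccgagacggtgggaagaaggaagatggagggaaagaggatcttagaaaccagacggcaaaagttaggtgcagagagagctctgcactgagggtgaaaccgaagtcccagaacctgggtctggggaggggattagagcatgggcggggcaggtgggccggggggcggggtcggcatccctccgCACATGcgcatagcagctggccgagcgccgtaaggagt
Cd63: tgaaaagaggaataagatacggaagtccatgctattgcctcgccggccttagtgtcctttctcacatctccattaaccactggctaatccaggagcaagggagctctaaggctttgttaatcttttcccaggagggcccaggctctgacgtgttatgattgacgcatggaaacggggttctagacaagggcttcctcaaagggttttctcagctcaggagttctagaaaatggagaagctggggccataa
Gpnmb: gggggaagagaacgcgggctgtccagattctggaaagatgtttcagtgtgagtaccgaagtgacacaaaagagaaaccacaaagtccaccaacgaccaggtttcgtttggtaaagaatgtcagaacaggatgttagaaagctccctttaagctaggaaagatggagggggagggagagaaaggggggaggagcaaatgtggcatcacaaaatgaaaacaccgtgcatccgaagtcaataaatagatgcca
The Trem2 sequence holds TGAATCA, 9 bases before the start, and the Cd9 sequence holds CACATG, which reads CATGTG on the other strand, 38 bases before the start. Neither the Cd63 nor the Gpnmb sequence holds any of the 3 motifs, which says only that these letters are absent from these windows. Of 32851 mouse promoters of the same length, 6.749% hold TGANTCA, 6.021% hold CACGTG and 12.25% hold CATGTG, where N is any base. A match is a description of the letters and not a binding site.

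In Kupffer-type cells, 4 of the 7 genes had at least 10 CPM in a library, and 3 of them, Trem2, Cd9 and Cd63, were at least 2-fold higher in library 2. Tyrobp was within 2-fold. Of the 8204 genes that met the same minimum, 2.5% were at least 2-fold higher in library 2 and 9.59% at least 2-fold lower. The median log2 ratio was 2.07 over the 4 genes and -0.33 over all genes tested. Without the shallow shared barcodes the same count was 3, with a median of 2.21, against 2.64% of genes higher and 10.7% lower. Gpnmb lay just outside the minimum, at 9.97 CPM in library 2, and is described with its counts below. Spp1 and Ctsk were under 1 CPM in Kupffer-type cells of both libraries.

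**Figure D1:**
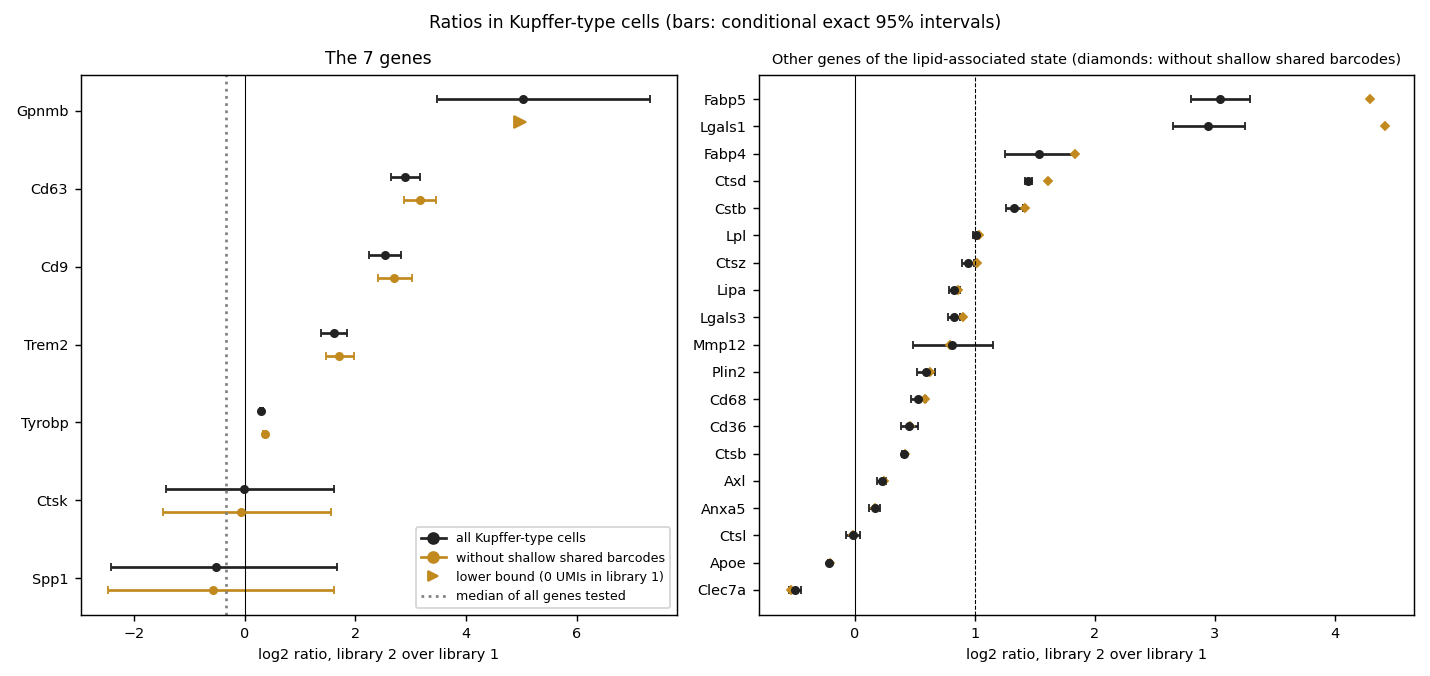
Log2 ratios of CPM in Kupffer-type cells, library 2 over library 1, with conditional exact 95% intervals. The left panel shows the 7 genes with all cells and without the shallow shared barcodes, and the dotted line is the median of all genes tested (-0.33). The right panel shows 19 other genes of the lipid-associated state. Gpnmb, Cd63, Cd9 and Trem2 stand above 1, Tyrobp is at 0.30, and the intervals of Ctsk and Spp1 span 0.

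The receptor gene Trem2 had 1373 UMIs in Kupffer-type cells of library 2, or 48.7 CPM (46.2 to 51.4), against 157 UMIs or 15.9 CPM (13.5 to 18.6) in library 1. The ratio was 3.06-fold, a log2 ratio of 1.61 (1.37 to 1.86). Leaving out the shallow shared barcodes gave 1.72 (1.46 to 1.98). In library 2, 846 of 4056 cells had a Trem2 UMI, and the highest cell had 12.

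Its adaptor gene Tyrobp was present in most Kupffer-type cells, with 1730 CPM in library 2 and 1404 CPM in library 1. The log2 ratio of 0.30 (0.27 to 0.33) was far below that of Trem2. A UMI of Tyrobp was found in 85.8% of Kupffer-type cells of library 2 and 87.0% of those of library 1, before any correction for depth.

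The tetraspanin genes were apart by more than Trem2. Cd63 had 2840 UMIs or 100.8 CPM (97.1 to 104.6) in library 2, against 133 UMIs or 13.5 CPM (11.3 to 15.998) in library 1, a log2 ratio of 2.90 (2.65 to 3.16). Cd9 had 1803 UMIs or 64.0 CPM (61.1 to 67.0) in library 2, against 109 UMIs or 11.1 CPM (9.08 to 13.3) in library 1, a log2 ratio of 2.53 (2.25 to 2.82). Without the shallow shared barcodes the log2 ratios were 3.16 for Cd63 and 2.71 for Cd9.

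Gpnmb, the lysosomal glycoprotein gene, had 281 UMIs in 188 Kupffer-type cells of library 2 and 3 UMIs in 3 cells of library 1. That is 9.97 CPM (8.84 to 11.2) in library 2, against 0.304 CPM (0.0628 to 0.890) in library 1, a ratio of 32.8-fold with a wide interval of 11.1 to 159.8. All 3 UMIs of library 1 were in shallow shared barcodes. Without those barcodes library 1 had 0 Gpnmb UMIs, and the ratio was at least 31.6-fold against a floor of 3 UMIs over the Kupffer-type cells of library 1. Of the 188 cells of library 2 with Gpnmb, 141 had 1 UMI, 47 had at least 2 and the highest had 11.

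The secreted ligand gene Spp1 and the protease gene Ctsk were close to the detection limit in Kupffer-type cells. Spp1 had 8 UMIs in library 2 and 4 UMIs in library 1, a log2 ratio of -0.52 (-2.42 to 1.67). Of the 8 UMIs, 4 came from 1 cell. Ctsk had 17 UMIs in library 2 and 6 in library 1, a log2 ratio of -0.01 (-1.42 to 1.62). No difference was detectable at this depth for either gene, and no Ctsk UMI count in a Kupffer-type cell exceeded 1 in library 2 or 2 in library 1.

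Depth differed between libraries, so each Kupffer-type cell was also thinned to 1000 UMIs, which left 3353 cells of library 2 and 1575 of library 1 and left out 703 shallower cells of library 2 and 622 of library 1. Cd63 then had a UMI in 9.60% of cells of library 2 and 1.40% of library 1. Cd9 had one in 5.70% of cells of library 2 and 1.08% of library 1, and Trem2 in 4.00% of library 2 and 0.952% of library 1. Tyrobp had one in 72.2% of cells of library 2 and 64.5% of library 1. Gpnmb had one in 0.895% of cells of library 2 and in 1 of 1575 cells of library 1, and a level of 1 UMI gives no usable ratio. These 5 genes had higher shares in library 2, with intervals that did not overlap. Without the shallow shared barcodes, which left 1542 cells of library 1 and the same cells of library 2, the shares of library 1 were 1.36% for Cd63, 0.454% for Cd9 and 1.49% for Trem2, and the intervals of the 5 genes still did not overlap. Which UMIs a draw keeps moves such small shares: taken as the mean over all possible draws, the share of library 1 was 1.47% for Trem2 and 0.925% for Cd9 with these barcodes, and 1.44% for Trem2 and 0.881% for Cd9 without them. The same mean in library 2 was 4.32% for Trem2 and 5.80% for Cd9. Of 14619 genes with a UMI in a thinned cell, 4.86% were higher in library 2 in this sense and 14.5% lower. At a limit of 10% mitochondrial UMIs the count was 3, for Trem2, Cd9 and Cd63. Spp1, at 0.119% of cells of library 2 and 0.127% of library 1, and Ctsk, at 0.0596% of library 2 and 0 of 1575 cells of library 1 (up to 0.190% by the limit of 3 counts), did not separate. Unthinned, Trem2 had a UMI in 20.9% of Kupffer-type cells of library 2 and 5.60% of library 1, and Cd9 in 28.2% of library 2 and 3.96% of library 1. Cd63 had one in 32.3% of library 2 and 5.01% of library 1, and Gpnmb in 4.64% of library 2 and 0.137% of library 1.

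Free RNA gives UMIs in cells that do not express a gene, so the same shares were taken in lymphoid cells, which are not known for Trem2 or Gpnmb and make Tyrobp in natural killer cells. In 101 thinned lymphoid cells of library 2, Trem2 had a UMI in 1.98% (0.241 to 6.97), Cd9 in 0.990% and Cd63 in 1.98% (0.241 to 6.97). Gpnmb had none there, which allows up to 2.97%. In 61 thinned lymphoid cells of library 1, Trem2, Cd9 and Cd63 had none, which allows up to 4.92%, and Gpnmb had a UMI in 1 cell. Median depths of lymphoid cells before thinning were 2448 UMIs in library 2 and 2398 in library 1. The Cd63 share of Kupffer-type cells of library 2 had an interval of 8.63 to 10.7 and lay above that of lymphoid cells, while the Trem2 and Cd9 shares (3.36 to 4.72 and 4.94 to 6.54) overlapped the wide lymphoid intervals. The Gpnmb share of library 2 (0.604 to 1.27) was within what the lymphoid cells allow, and its CPM was 9.97 in Kupffer-type and 1.01 in erythroid-type cells. In 592 thinned erythroid cells of library 2, Trem2 had a UMI in 0.507%, Cd9 in 1.01%, and Cd63 in 2.20%, each with an interval below that of Kupffer-type cells, and Gpnmb had none, which allows up to 0.507%. Per Kupffer-marker UMI, lymphoid cells of library 2 had 1.47 times the Trem2, 1.40 times the Cd9 and 0.886 times the Cd63 of Kupffer-type cells. These ratios rest on 4 UMIs of Trem2, 5 of Cd9 and 5 of Cd63 in 102 unthinned cells, too few to fix them closely. The shares of Trem2, Cd9 and Cd63 in Kupffer-type cells of library 1 were at or below the lymphoid ceiling of 4.92%, which rests on 61 cells, so these cells alone do not set them apart from background. Endothelial-type cells, which are not known for Trem2, gave a lower ceiling for that gene in library 1: 0 Trem2 UMIs in 248 cells, which allows up to 3.96 CPM, below the 15.9 CPM (13.5 to 18.6) of Kupffer-type cells. For Cd9 and Cd63, which endothelial-type cells hold themselves, no such ceiling was available.

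**Figure D2:**
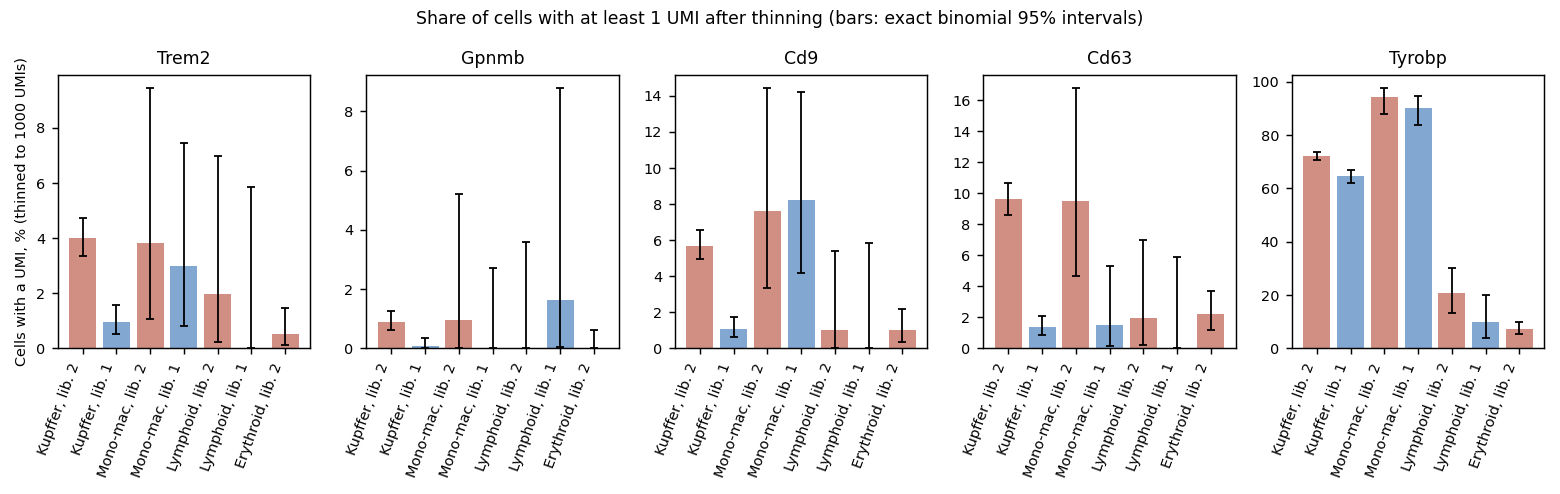
Share of cells with at least 1 UMI of each gene, in percent, after thinning each cell to 1000 UMIs, with exact binomial 95% intervals, by cell type and library. Kupffer-type cells of library 2 stand above those of library 1 for all 5 genes, and erythroid cells of library 2 are low for Trem2, Gpnmb, Cd9 and Cd63.

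Across lineages, none of the 7 genes was highest in Kupffer-type cells in either library. Lineages of at least 50 cells were compared, 7 in library 2 and 4 in library 1. Of all genes with at least 10 CPM in a lineage, 7.9% of library 2 and 15.6% of library 1 were highest in Kupffer-type cells. At a limit of 10% mitochondrial UMIs, which left 3 lineages of that size in library 2, Cd63 and Ctsk were highest in Kupffer-type cells, and with 1 marker more per gate Trem2 was. Monocyte-macrophage-type cells, 106 in library 2 and 136 in library 1, had more Trem2 than Kupffer-type cells, at 69.1 CPM (49.8 to 93.3) for library 2, against 54.8 CPM (40.1 to 73.1) for library 1. In library 2 that interval overlapped the Kupffer-type one, and in library 1 it did not. The log2 ratio of Trem2 between libraries was 0.33 (-0.30 to 0.97) in monocyte-macrophage-type cells, and 1.61 in Kupffer-type cells.

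Tyrobp was highest in monocyte-macrophage-type cells, with 2802 CPM in library 2 and 2522 CPM in library 1, followed by Kupffer-type cells in both. Gpnmb had 69.1 CPM in monocyte-macrophage-type cells of library 2, but 28 of its 42 UMIs came from 1 cell and only 6 cells had any, so its log2 ratio of 3.86 (2.39 to 5.80) rests on that cell. In library 1 it had 4 UMIs in 2 such cells. Cd9 did not separate between libraries in monocyte-macrophage-type cells, at 65.8 CPM (47.0 to 89.6) for library 2, against 78.6 CPM (60.8 to 99.99) for library 1. Cd63 had 62.5 CPM (44.2 to 85.8) in library 2, against 31.0 CPM (20.2 to 45.4) in library 1, a log2 ratio of 1.01 (0.26 to 1.79). In this cell type 6 of the 7 genes met the minimum and 2, Gpnmb and Cd63, were at least 2-fold higher in library 2, against 5.79% of 8292 genes higher and 10.4% lower. Gpnmb, at 4.76 CPM in library 1, and Spp1, at 5.95 CPM there, met the minimum only in library 2. The place of Gpnmb in this count was therefore set in part by the minimum, and the count is a description.

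The tetraspanins were highest outside macrophages, though in library 1 the highest intervals overlapped those of monocyte-macrophage-type cells. Cd9 was highest in endothelial-type cells, with 169.8 CPM in library 2 and 87.2 CPM in library 1, among the lineages of at least 50 cells. Among smaller ones, 2 had more. Neutrophils of library 2 (29 cells) had 237 CPM (167.5 to 324.9), and conventional dendritic cells had 214 CPM in library 2 (47 cells) and 218 CPM in library 1 (25 cells). Cd63 was highest in stellate-type cells of library 2, at 426 CPM (54 cells), with 576 CPM in the 33 stellate-type cells of library 1, too few to enter the order there. In 29 neutrophils of library 2 it had 455 CPM. Stellate cells make the matrix of the space of Disse, and endothelial cells line the sinusoids.

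Endothelial-type cells also had a library difference for Cd63, at 202.7 CPM in library 2 and 34.4 CPM in library 1, a log2 ratio of 2.56 (1.94 to 3.23). Tyrobp, known from myeloid and natural killer cells, had 213 CPM in endothelial-type cells of library 2 and 47.6 CPM in library 1, a log2 ratio of 2.16. Cd9 had a log2 ratio of 0.96 (0.50 to 1.43) there, and was within 2-fold. Of 3 genes that met the minimum 2 were at least 2-fold higher in library 2, against 6.8% of 9457 genes higher and 17.9% lower. Kupffer-marker RNA also differed there: its median was 31.3 per 10000 UMIs in endothelial-type cells of library 2 and 11.7 in library 1. Per Kupffer-marker UMI, Tyrobp in endothelial-type cells of library 2 had 0.974 times its ratio in Kupffer-type cells, near 1, while Cd63 had 15.9 times and Cd9 21.04 times.

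In erythroid-type cells of library 2, the same ratio was 1.001 for Trem2, 0.606 for Tyrobp, 1.101 for Cd9, 1.63 for Gpnmb and 2.55 for Cd63. The levels there were 3.03 CPM for Trem2, 65.2 CPM for Tyrobp, 4.38 CPM for Cd9, 1.01 CPM for Gpnmb and 16.003 CPM for Cd63. The Gpnmb value rests on 6 UMIs and the Trem2 value on 18. Library 1 had 31 erythroid-type cells, of which 30 carried shallow shared barcodes, so no level is given there.

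Spp1 and Ctsk had their highest levels in other lineages and in few cells. Spp1 had 42 UMIs in hepatocyte-type cells of library 2, all in 1 cell with 5343 UMIs, 71 UMIs of hepatocyte markers and at least 1 UMI of 4 of the 6 cholangiocyte markers (Krt19, Krt7, Epcam and Sox9). Monocyte-macrophage-type cells had 7 UMIs in library 2 and 5 in library 1. Cells assigned to no lineage held 32 Spp1 UMIs, 31.7% of those of library 2. Ctsk had 6 UMIs in 6 stellate-type cells of library 2 and 1 UMI in library 1.

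**Figure D3:**
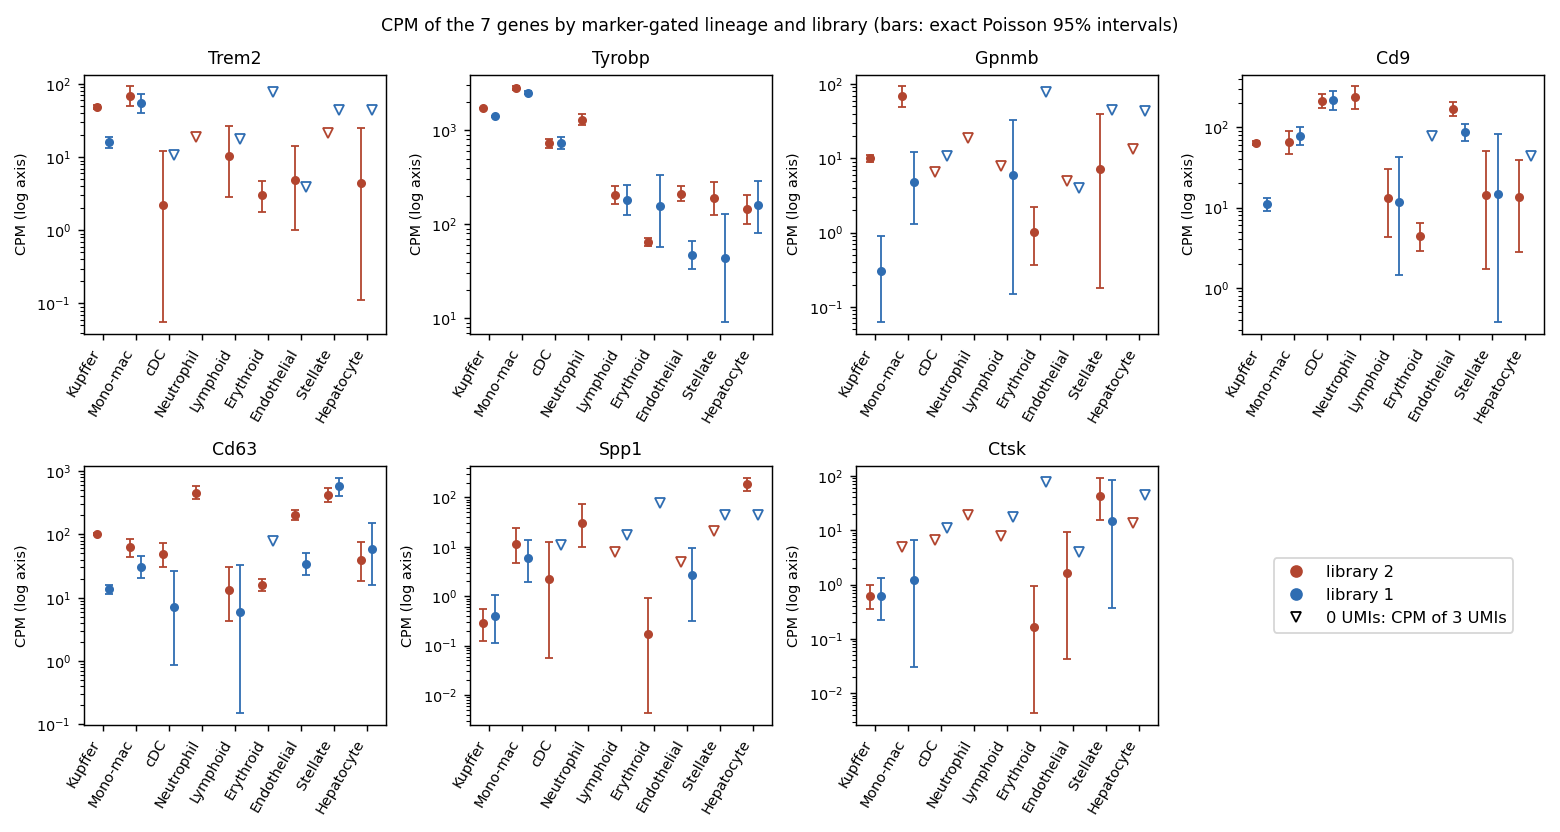
CPM of each of the 7 genes, on a log axis, by lineage and library, with exact Poisson 95% intervals. Open triangles mark 0 UMIs and stand at the CPM of 3 UMIs; lineages under 20 cells are not drawn. Trem2 and Tyrobp are highest in monocyte-macrophage-type cells in both libraries, Cd63 in stellate-type cells and neutrophils, and Spp1 in 1 hepatocyte-type cell of library 2.

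Co-expression was looked at in single Kupffer-type cells of library 2, thinned to 1000 UMIs so that depth is the same. Of the 21 pairs of the 7 genes, 3 were found together at least 1.5 times as often as the product of their shares. Gpnmb and Cd63 were together in 11 cells against 2.88 from their shares, and Trem2 and Gpnmb in 3 cells against 1.20. The third, Trem2 and Spp1, was 1 cell against 0.160 and carries no weight. Of all gene pairs in these cells in which both genes reached 2% of cells, 7.63% were at or above 1.5. Gpnmb, Spp1 and Ctsk are below 2%, so all 3 pairs named above are outside that background. The pairs among Trem2, Tyrobp, Cd9 and Cd63, which are inside it, were all below 1.5, the highest being Cd9 with Cd63 at 1.47. Library 1 had 2 such pairs, Trem2 with Cd9 and Tyrobp with Gpnmb, each in 1 cell, and there the background (11.8%) holds no pair of the 7 genes, since Tyrobp alone reached 2%. Without the shallow shared barcodes no thinned cell of library 1 had Gpnmb. The 2 pairs were then Trem2 with Cd9 and Trem2 with Cd63, each in 1 cell. With all cells kept, counting only pairs expected in at least 1 cell left 2 pairs in library 2 and 0 in library 1. There the pairs that remained all include Tyrobp, whose share caps the ratio at 1.55. At 2000 UMIs, in 2821 cells, Gpnmb and Cd63 were together in 20 cells against 7.70, and Trem2 and Gpnmb in 10 against 4.22.

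The other pairs were nearer to 1. Cd9 and Cd63 were together in 27 cells against 18.3, Trem2 and Cd63 in 18 against 12.9, and Trem2 and Cd9 in 8 against 7.63. At 2000 UMIs the last pair was in 22 cells against 28.6. These are counts of a few cells, and a weak relation in sparse counts is not a finding. Not counting Tyrobp, which was in most cells, 18.4% of thinned cells of library 2 had at least 1 of the 6 other genes, 1.91% at least 2 and 0.0895% at least 3. In library 1, 3.56% had at least 1, 0.0635% at least 2 and 0 of 1575 cells at least 3. Without the shallow shared barcodes these were 3.31%, 0.130% and 0 of 1542 cells.

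Cells of library 2 with at least 5000 UMIs were split by whether they had a Gpnmb UMI, which leaves the other 6 genes free of the split. The 158 cells with one had 191 CPM of Cd63 (174 to 211), against 89.0 CPM (85.1 to 92.9) in the 2057 cells without. Trem2 had 89.4 CPM (77.4 to 102.7) in cells with Gpnmb and 45.3 CPM (42.6 to 48.2) in cells without. Cd9 had 84.4 CPM (72.8 to 97.4) in cells with and 63.4 CPM (60.1 to 66.8) in cells without. Tyrobp had 1879 CPM (1822 to 1937) in cells with Gpnmb and 1785 CPM (1768 to 1802) in cells without. None of these 4 pairs of intervals overlapped, and the Tyrobp values lay closest together. How many of all genes separate in this split was not counted, so these 4 are not set apart from other genes.

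**Figure D4:**
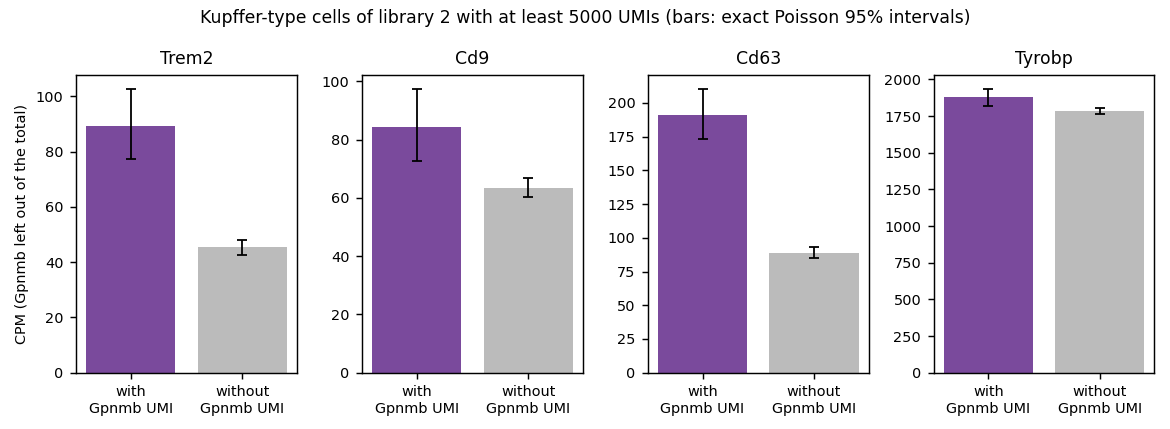
CPM of Trem2, Cd9, Cd63 and Tyrobp in Kupffer-type cells of library 2 with at least 5000 UMIs, with a Gpnmb UMI (158 cells, left) and without (2057 cells, right), with exact Poisson 95% intervals; the axes start at 0. Cd63 is at 191 CPM with Gpnmb and 89.0 CPM without, and Trem2 at 89.4 CPM with and 45.3 CPM without.

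These cells also differed in depth and in other RNA. Median depth was 13152 UMIs with Gpnmb and 9958 UMIs without. Monocyte-macrophage markers, all 10 with a UMI in both groups, had 130 CPM (115 to 145) with Gpnmb and 109 CPM (105 to 113) without. Proliferation markers had 104 CPM with Gpnmb and 68.3 CPM without, and hepatocyte markers had 995 CPM with and 1192 CPM without. The part of these in the Cd63 and Trem2 values was not tested. The 4 Spp1 UMIs of these cells were all in 1 cell, which also had Gpnmb.

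A split of the same cells by a Trem2 UMI gave a like picture for Gpnmb and Cd63 and not for Cd9. In the 720 cells with Trem2, Gpnmb had 18.0 CPM (15.4 to 20.98), against 5.19 CPM (4.12 to 6.45) in the 1495 cells without. Cd63 had 121 CPM with Trem2 and 84.5 CPM without. Cd9 had 63.0 CPM (58.0 to 68.4) with Trem2 and 66.6 CPM (62.6 to 70.8) without, and these intervals overlapped. Median depth was 11752 UMIs with Trem2 and 9445 UMIs without.

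Globin RNA was uneven among Kupffer-type cells of library 2, so these cells were also put in 3 groups of equal size by their globin share of UMIs. The median share was 8.42% in the group with most globin, 1.47% in the middle group and 0.365% in the group with least. CPM in these 3 groups leave globin UMIs out of the total, which raises them most in the group with most globin. On that total Trem2 had 51.4 CPM in the group with most globin, 48.9 CPM in the middle group and 53.3 CPM in the group with least. Those intervals overlapped, and whether they do with globin in the total was not tested. Cd9 had 67.6 CPM with most, 69.9 CPM in the middle and 66.8 CPM with least. Cd63 had 118 CPM (111 to 125) with most globin, 115 CPM (107 to 124) in the middle and 93.4 CPM (87.9 to 99.2) with least. Tyrobp had 1758 CPM (1731 to 1785) with most, 1677 CPM (1644 to 1709) in the middle and 1973 CPM (1947 to 1999) with least. Median depth was 7072 UMIs with most globin, 1772 in the middle and 7578 with least. In the group of library 2 with least globin, Cd63, Cd9 and Trem2 were each above their levels in Kupffer-type cells of library 1. Those levels, with globin in the total, were 13.5 CPM for Cd63, 11.1 CPM for Cd9 and 15.9 CPM for Trem2. The globin groups leave out the shallow shared barcodes of library 2. Without such barcodes the levels of library 1 were 11.3 CPM for Cd63, 9.79 CPM for Cd9 and 14.8 CPM for Trem2. The part of globin RNA in the difference between libraries was not tested. Globin RNA of taken-up red cells and free globin RNA in the droplet cannot be told apart here.

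Timd4 marks long-resident Kupffer cells, and cells with and without a Timd4 UMI differed in depth, with a median of 9136 UMIs with it and 1389 UMIs without in library 2, and 6133 with and 2060 without in library 1; shallow shared barcodes were left out here. In library 2, Trem2 had 50.8 CPM (47.9 to 53.8) with Timd4 and 39.4 CPM (34.1 to 45.3) without, Cd9 had 65.5 CPM with and 57.2 CPM without, and Cd63 had 100.3 CPM with and 103.5 CPM without. In library 1, Cd9 had 8.42 CPM (6.54 to 10.7) with Timd4 and 17.6 CPM (11.4 to 26.03) without, intervals that did not overlap. These values rest on 68 UMIs with Timd4 and 25 without. Cd63 had 10.03 CPM (7.97 to 12.5) with and 18.3 CPM (11.98 to 26.9) without, and Trem2 14.7 CPM with and 15.5 CPM without, with overlapping intervals. Tyrobp was higher with Timd4 in both libraries. It had 1813 CPM with and 1336 CPM without in library 2, and 1390 CPM with and 1067 CPM without in library 1. How many of all genes separate in these splits was not counted.

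Among 24 other genes of the lipid-associated state, all listed in the matrix, 19 met the minimum of 10 CPM and 6 were at least 2-fold higher in library 2, 0 were lower and 13 were within 2-fold, against 2.5% of all genes higher and 9.59% lower. Their median log2 ratio was 0.81, against -0.33 over all genes. Without the shallow shared barcodes 7 were higher, against 2.64% of all genes, with Ctsz joining at 1.01. The fatty acid carrier gene Fabp5 had a log2 ratio of 3.04 (2.80 to 3.29), which without these barcodes was 4.30, and the galectin gene Lgals1 had 2.94, against 4.42 without them. The protease gene Ctsd had 1.45, the cystatin gene Cstb 1.33 and the lipoprotein lipase gene Lpl 1.01. Lgals3 and Lipa were at 0.83 each, while Apoe was at -0.22 and the beta-glucan receptor gene Clec7a at -0.50.

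The counts of the next lists stand against the same 2.5% of all genes higher and 9.59% lower, and 1 lower gene in a list is about that share. The genes that work with TREM2 and TYROBP were all within 2-fold where they met the minimum. Of 11 signalling genes, 10 met it and were within 2-fold, with a median of -0.44; the kinase gene Syk had -0.39, and Adam10 and Adam17, whose proteases cut TREM2 from the surface, had -0.68 for Adam10 and -0.77 for Adam17. Of 10 other receptors that couple to TYROBP, 3 met it and were within 2-fold, with a median of -0.16. Of 16 other tetraspanins, 13 met it: Cd82 and Tspan3 were higher, Cd82 at 1.65 and Tspan3 at 1.44, Tspan32 was lower and 10 were within 2-fold, with a median of -0.30. Of 12 cathepsins and inhibitors 11 met it: Cstb was higher, Ctsf was lower at -1.31, and 9 were within 2-fold, with a median of -0.02. Of 7 receptors of osteopontin 6 met it, and the integrin gene Itga4 was lower at -1.17. The 4 MiT factor genes were all within 2-fold, with a median of -0.09. The lists share genes: Cstb, Ctsb, Ctsl and Ctsz stand in both the lipid-associated and the cathepsin lists. Summed over Kupffer-type cells, the 4 globin genes had a median log2 ratio of 4.81, or 7.64 without the shallow shared barcodes.

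The genes whose pattern over 11 lineage and library units was most like each of the 7 were named by the highest Pearson correlation of log2(CPM + 10) among 6931 genes. The 11 units share 2 libraries, so these values are descriptions. For Tyrobp they were Fcer1g (0.99) and Spi1, and for Trem2 Psma7 (0.96), Clec4a2 and Lyz2. Those of Cd9 were Itga5, Bax and Id1, and those of Cd63 Pfkl, Abcc9 and Igfbp5. The patterns of Gpnmb (S100a9, Mpo and Elane), Spp1 (Dgat2, Stra6l and Tcea3) and Ctsk (Adamts2, Pcdh18 and Nr1h5) each rest on 1 unit, and for Gpnmb and Spp1 mostly on 1 cell.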

How the data were processed

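The authors deposited 1 matrix of UMI counts, whole numbers that are not normalized, with a row per gene and a column per cell barcode, for both libraries together. The submitters' processing notes name Cell Ranger 3.0.1, R 3.6.1 and the build GRCm38.p5. The annotation release and any subsampling of reads to equal depth were not given in the sources used here. The 7 genes and the gene lists were chosen with earlier results of these data known.

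Barcodes under 200 genes, or over 20% mitochondrial UMIs, were dropped. Lineages other than Kupffer-type needed at least 4 markers, 20 marker UMIs per 10000 (100 for hepatocytes), under 100 Kupffer-marker UMIs per 10000 and no second gate. The gating thresholds, the splits by Gpnmb, Trem2, Timd4 and globin, and the 5000-UMI minimum were chosen after the data were seen. UMIs were summed per lineage and library. CPM carry exact Poisson intervals, shares Clopper-Pearson intervals and ratios conditional exact intervals, all at 95%. Genes with at least 10 CPM in a library were counted, and 0 UMIs were replaced by a floor of 3 over the cells of a library. Thinning drew UMIs without replacement. All 7 genes are named. List genes are named from 50 CPM and 30 UMIs in a library, apart from Tspan32, named after its value was seen; Fabp4 and Mmp12 stand in a figure alone. For each of the 7, up to 3 like genes are named, without numbered predicted genes; 1 is not reported here. The scripts were tested on simulated data. Tools were matplotlib 3.10.9, pandas 2.3.3, scipy 1.17.1, numpy 2.4.6 and Python 3.11.15. Promoter sequences are from RefSeq.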

Additional observations from a re-analysis of the deposited data

Results flagged for a closer look

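Barcodes that the filters on gene number and mitochondrial RNA left out, 2784 of library 2 and 5419 of library 1, also held UMIs of these genes, above the limit that a count of 0 allows. In library 2 they had 24.5 CPM of Trem2, 536 CPM of Tyrobp, 5.2 CPM of Gpnmb, 39.4 CPM of Cd9 and 85.6 CPM of Cd63. Spp1 had 0.449 CPM and Ctsk 1.79 CPM in them. In library 1 the left-out barcodes had 8.17 CPM of Trem2, 495 CPM of Tyrobp, 8.74 CPM of Cd9 and 13 CPM of Cd63, and 0.685 CPM each of Spp1 and Ctsk.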

How the results depend on the processing

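The count of genes at least 2-fold higher in Kupffer-type cells of library 2 was 3 or 4 in each of 9 alternative settings. The median log2 ratio, 2.07, was 2.47 at a limit of 10% mitochondrial UMIs, 2.69 with at least 500 genes per cell, 2.59 without globin and mitochondrial genes in the total and 1.61 with no minimum CPM, while 5 other settings moved it by less than the counting intervals of Trem2 and Cd9. In the first 3 of these settings Gpnmb also met the minimum, so the median was over 1 gene more and was the Cd9 ratio. With no minimum all 7 genes entered, and the median was the Trem2 ratio. No gene was highest in Kupffer-type cells of library 2, but 2 were at the limit of 10% mitochondrial UMIs, where 3 lineages were left to compare in place of 7, and 1 was with 1 marker more per gate, where 6 were left. The count of genes with a higher share in library 2, 5, was 3 at the limit of 10%, which left 1187 Kupffer-type cells of library 2 and 556 of library 1. The count of co-detected pairs in library 2, 3, was 5 at the limits of 10% and 40% mitochondrial UMIs and with 1 marker fewer, and 8 without thinning, which leaves the cells at unequal depth. In library 1 it was 2, with 0 at the limit of 10%, 1 with at least 500 genes, 4 with 1 marker fewer, 6 without thinning and 0 counting only pairs expected in at least 1 cell, a setting chosen after the data were seen that gave 2 in library 2. Over 8 settings the log2 ratio ran from 1.32 to 1.81 for Trem2, 2.47 to 2.88 for Cd9, 2.80 to 3.16 for Cd63, 3.73 to 5.58 for Gpnmb and 0.20 to 0.52 for Tyrobp. Ctsk ran from -1.86 to 0.18 and Spp1 from -1.05 to -0.11. No paired analysis was possible because there is 1 library per mouse, and for the same reason no replicate could be left out. Spp1, Ctsk and, in library 1, Gpnmb rest on at most 17 UMIs in Kupffer-type cells of a library.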
